A study of Mus musculus with 4 samples.

Results

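Messenger RNA of 37 interferon response and antigen presentation genes was followed across the stromal cells of the LATS1/2 KO mouse intestine. The genes were a given list of interferon-stimulated and major histocompatibility complex (MHC) class I genes, and all 37 were among the 18619 genes of the deposited matrix. They comprised 17 antiviral effectors, 3 RNA sensors, 4 transcription factors, 6 interferon-inducible GTPases and 7 genes of antigen presentation. The list was not drawn from measured values, but it was proposed with earlier results of these data known.

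Interferons are secreted proteins that bind receptors on neighbouring cells and, through Janus kinases and STAT proteins, switch on genes that restrict viruses and intracellular bacteria. Type I interferons act mainly through a complex with Stat2 and Irf9 that binds the interferon-stimulated response element (ISRE), and interferon gamma acts mainly at the gamma-activated site (GAS). MHC class I molecules, made of a heavy chain and B2m, display peptides that the immunoproteasome cuts and the Tap transporter carries into the endoplasmic reticulum. In the intestine these genes are known for a basal activity kept up by the microbiota.

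Of the 4 samples of the series, which form 3 groups, 1 is described here, the LATS1/2 KO 1w library. Its adult C57BL/6J mice carried PDGFRb-CreERT2, a Tomato reporter and floxed alleles of both kinases (Lats1f/f Lats2 f/f), and cells were taken 1 week after tamoxifen. Lats1 and Lats2 are the kinases that hold back the coactivators YAP and TAZ, and Amotl2 is a gene that YAP and TAZ are known to switch on. The 2 WT libraries, which carried CreERT2 and Tomato without the deletion, and the KO library of 2 weeks were not analysed here, so no value below speaks to the effect of the deletion. The driver acts in any cell that expresses Pdgfrb, and fibroblasts, smooth muscle and mural cells all lie within the gate. According to the study's methods immune, epithelial and endothelial cells were depleted with beads before Tomato+ cells were sorted, and remaining immune cells with Ptprc and endothelial cells with Pecam1 and Cdh5 were taken out after a first clustering.

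In total 4108 cells gave 46054627 UMIs (unique molecular identifiers, 1 per captured RNA molecule), with a median of 10726 UMIs per cell and a range of 1965 to 35727. Levels are given in CPM (a gene's share of all UMIs in the pooled cells, times 1000000), with exact Poisson 95% intervals. Only transcript 3-prime ends were read, so levels do not scale with transcript length. Every interval covers counting error alone, because cells of 1 library are not replicates and no test between conditions was possible. Lats1 stood at 14.2 and Lats2 at 53.5 CPM, which does not check the deletion, as 3-prime reads can lie outside the removed exons. Pdgfrb, the gene of the driver, stood at 532.6 CPM and had at least 1 UMI in all 4108 cells. Cells may have been selected on this gene before the matrix was made, which was not tested. The cells came from at least 1 female and 1 male animal, since 2009 cells had Xist and no Y-linked UMI and 1545 had a Y-linked UMI and no Xist. Cells with Xist and cells with Y-linked UMIs are given separately below as the only split of the library that the cells themselves carry, and sex, animal and any difference in handling cannot be told apart.

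Cells were clustered without the 37 genes, without the other genes of the pathway and without the genes that set the cell states, and 10 clusters formed. A cluster took the name of a cell type with "-like" when at least 3 of that type's markers were counted in it, a rule chosen after the levels had been seen. Clusters 1, 2, 4 and 5 met the villus fibroblast list vFB1-2 (Adamdec1, Shisa3, Serpina3n) and were pooled as 2695 vFB1-2-like cells, the reference of all comparisons between cell types. The other classes were 685 FB4-like cells (Ackr4, Grem1, Cilp, Cd81), 205 FB5-like cells (5 of 6 markers, Dll1 missing), 45 vFB3-like cells (5 of 5 markers), 80 smooth muscle or SMC-like cells (6 of 6) and 69 mural or MC-like cells (6 of 6). Cluster 6, with 329 cells, met no list and is given by number. Of its markers 1 of 3 vFB1-2, 1 of 5 vFB3 and 2 of 6 FB5 genes were counted. Adamdec1 was at 4629 CPM there and Fhl2, a vFB3 marker, at 456.3, against 459.2 in vFB3-like cells. At clustering resolution 0.2 every cluster took a name, and 3026 cells were vFB1-2-like. The vFB3-like cells also had Adgrf5 and Plvap among their leading genes, which are classically endothelial. All 6 endothelial markers were at 0 UMIs in them, but Pecam1 was at 0 UMIs in the whole library, and the removal of cells by Pecam1 and Cdh5 may have set part of these values. They also had 3 of 6 FB5 markers counted. The SMC-like cells also had the vFB1-2 marker Adamdec1 at 4465 CPM, against 4736 in vFB1-2-like cells, and 2 of 3 vFB1-2 markers counted. In FB4-like cells 2 of 3 vFB1-2 markers were counted too. Shisa3 was at 125.2 and Serpina3n at 235.6 CPM there, against 98.9 and 167.1 in vFB1-2-like cells. Of that list only Adamdec1, at 181.2 CPM, was lower in FB4-like cells. The FB5-like cells were led in part by Kcnj8 and Abcc9, which are classically mural, and 3 of 6 smooth muscle markers were counted in the MC-like cells. The names were rebuilt from markers, so the cells in a class may differ from those the study placed under the same name.

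Immune cells express interferon-stimulated and class I genes strongly, so their markers were summed in each class. The 8 immune markers together lay between 11.3 CPM in FB4-like and 57.2 in FB5-like cells, with 24.96 in vFB1-2-like, 55.9 in cluster 6, 37.8 in vFB3-like, 11.4 in SMC-like and 28.2 in MC-like cells. Lyz2, a lysozyme gene of macrophages and granulocytes, made up most of each sum except that of the SMC-like cells, with 54.8 in FB5-like cells and 46.2 in cluster 6. Ptprc, which defines leukocytes, was at 0 UMIs in cluster 6 and in vFB3-like, FB5-like, SMC-like and MC-like cells and at 0.728 CPM in vFB1-2-like cells. Since the study's methods remove immune cells by Ptprc, its low values are no check on immune RNA in these classes. Cd3e was at 0 UMIs in every class. RNA that floats free between droplets was gauged from the Y-linked genes. They reached 6.60 CPM in 2004 cells with at least 5 Xist UMIs against 76.4 in the library, or 8.64% of the library's level. The same share of a gene's level in the library was 1.64 CPM for Ifit1 and 80.5 for B2m. These values bound free RNA from the kept cells only. Free RNA from the removed immune and endothelial cells was not bounded.

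Some of the genes lie close together on the chromosomes. In the GENCODE M21 annotation of mm10, 6 of the 7 antigen presentation genes (Tap1, Tapbp, Psmb8, Psmb9, H2-K1, H2-D1) lie in the MHC on chromosome 17, and B2m lies on chromosome 2. Ifit1, Ifit2 and Ifit3 lie together on chromosome 19, and Gbp2, Gbp3 and Gbp7 on chromosome 3. H2-K1 and H2-D1 have near copies, and 18.01% of the 50-base stretches in the last 500 bases of H2-D1 and 6.93% of those of H2-K1 also occurred in another gene, so the split of reads among class I genes is uncertain. No such stretch was shared by Ifit1, Ifit2 or Ifit3.

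The sequences upstream of 5 start sites are shown because they carry the letters that interferon-activated factors are known to bind and because these genes mark the patterns described below. Each is the 250 bases before a RefSeq start site on GRCm38.p6, written along the gene's strand, with matches of the ISRE core GAAANNGAA and of the GAS letters TTCNNNGAA, on either strand, in capitals.
Ifit1, chr19:34640639-34640888, plus strand: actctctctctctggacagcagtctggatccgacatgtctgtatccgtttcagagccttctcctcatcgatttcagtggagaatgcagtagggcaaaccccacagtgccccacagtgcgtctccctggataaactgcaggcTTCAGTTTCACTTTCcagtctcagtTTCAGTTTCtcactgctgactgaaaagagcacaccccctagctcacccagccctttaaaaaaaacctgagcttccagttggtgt
Isg15, chr4:156200819-156201068, minus strand: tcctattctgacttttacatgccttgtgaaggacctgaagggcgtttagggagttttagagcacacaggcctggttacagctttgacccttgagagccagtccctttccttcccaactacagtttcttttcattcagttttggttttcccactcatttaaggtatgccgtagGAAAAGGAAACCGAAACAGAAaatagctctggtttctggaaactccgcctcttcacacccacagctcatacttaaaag
Bst2, chr8:71537473-71537722, minus strand: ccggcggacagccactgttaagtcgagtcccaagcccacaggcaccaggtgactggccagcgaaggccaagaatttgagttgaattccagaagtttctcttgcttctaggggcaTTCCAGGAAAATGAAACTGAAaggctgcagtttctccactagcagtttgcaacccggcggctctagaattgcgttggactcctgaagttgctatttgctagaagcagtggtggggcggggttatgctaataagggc
Gbp3, chr3:142559794-142560043, plus strand: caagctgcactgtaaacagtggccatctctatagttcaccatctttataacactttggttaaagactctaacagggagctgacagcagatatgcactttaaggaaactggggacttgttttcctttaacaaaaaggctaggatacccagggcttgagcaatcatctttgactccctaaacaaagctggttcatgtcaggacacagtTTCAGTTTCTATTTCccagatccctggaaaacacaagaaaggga
Irf1, chr11:53769764-53770013, plus strand: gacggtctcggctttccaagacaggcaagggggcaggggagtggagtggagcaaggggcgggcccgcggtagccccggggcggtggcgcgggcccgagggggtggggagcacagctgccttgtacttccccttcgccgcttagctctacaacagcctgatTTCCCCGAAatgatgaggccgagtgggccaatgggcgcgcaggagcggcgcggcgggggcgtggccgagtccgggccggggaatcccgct
Ifit1 had 3 cores whose first bases lay at 109, 103 and 84 bases before its start site, and Isg15 had 3 overlapping cores at 78, 72 and 66 bases. In Bst2 a GAS match at 136 bases ran into 2 overlapping cores at 130 and 124 bases, and Gbp3 had 2 cores at 44 and 38 bases. Irf1 had a GAS match at 90 bases and no core.

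Of the 37 members, 30 had an entry in the promoter table, and Parp14, Ifi27, Usp18, Rtp4, Dhx58, Iigp1 and Zbp1 had none. The core was found in 14 of the 30, against 8.18% of the 27025 genes in the table. It was present in all 5 matched GTPases, in 6 of 12 antiviral effectors, in Ifih1 of 2 RNA sensors and in Stat2 of 4 transcription factors. Among the 7 antigen presentation genes B2m alone had it within this window. The GAS letters were found in 7 of the 30 against 8.13% of all genes, and either motif in 18 of the 30 against 15.3%. A match describes letters only, and absence from 250 bases says nothing of a site elsewhere.

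Members differed in level by orders of magnitude. They held 226834 UMIs in all, from 39 for Ifi44 and 80 for Rsad2, the only 2 under 100, to 55709 for H2-D1. B2m, H2-K1 and H2-D1, the light chain and both classical heavy chains of class I, took 60.6% of these UMIs. In the following comparisons a gene was assessed when equal levels would have given at least 10 UMIs in the smaller set of cells, and it was called higher or lower at a ratio of at least 1.5 or at most 1/1.5. This call is a size and not a test.

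**Figure D1:**
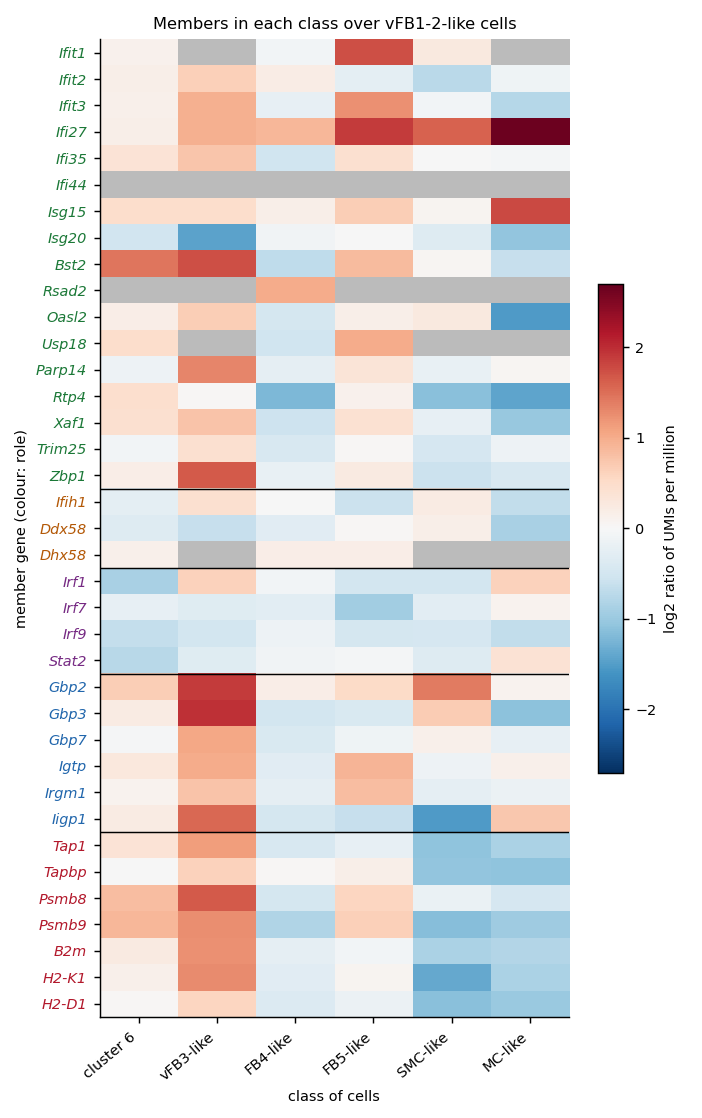
Log2 ratio of the level of each of the 37 members (rows, grouped by role) in cluster 6 and in 5 named classes (columns) to its level in vFB1-2-like cells, with genes under the minimum of 10 expected UMIs in grey. The vFB3-like column is mostly higher, and the antigen presentation rows are lower in SMC-like and MC-like cells.

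Levels were highest in the vFB3-like cells, villus fibroblasts marked by Mmp10, Itga8 and Tacr1. Of 32 members assessed 22 were higher and 2 lower there than in vFB1-2-like cells, against 15.7% and 16.6% of the 6642 genes assessed, and the members' median ratio was 1.70 against 1.06 over all genes. All 6 GTPases and 6 of 7 antigen presentation genes were higher, and H2-D1 lay just under the limit at 1.49. The summed level of the 30 interferon-response members was 2.05 times (95% interval 1.95 to 2.15) that of vFB1-2-like cells and the sum of the 7 antigen presentation genes also 2.05 times (1.99 to 2.11). With classes set from marker UMIs per cell without clustering, which gave 317 vFB3-like cells, these ratios were 1.40 and 1.26.

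Among the class I genes, B2m stood at 2222 CPM in vFB3-like cells and at 1118 in cluster 6, 940.0 in vFB1-2-like, 899.2 in FB5-like, 798.5 in FB4-like, 540.2 in MC-like and 519.4 in SMC-like cells. The last pair did not differ beyond their counting intervals, while vFB3-like cells stood clear of all others. H2-K1 followed the same order except that FB5-like and vFB1-2-like cells changed places, with 2068 in vFB3-like, 945.4 in cluster 6, 907.2 in FB5-like, 859.8 in vFB1-2-like, 699.4 in FB4-like, 476.8 in MC-like and 332.4 in SMC-like cells. Cluster 6 and FB5-like cells did not differ there beyond their intervals. FB5-like cells stood above vFB1-2-like cells for H2-K1 among cells with Xist only (1065 against 972.9). Among cells with Y-linked UMIs they stood below (693.8 against 744.1). H2-D1 spanned a narrower range, from 587.6 in SMC-like to 1904 in vFB3-like cells.

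The immunoproteasome subunits Psmb8 and Psmb9, which replace constitutive proteasome subunits after interferon exposure, had a similar top and a different middle. Psmb8 reached 522.9 CPM in vFB3-like cells, followed by 294.1 in cluster 6, 246.9 in FB5-like, 165.0 in vFB1-2-like, 145.3 in SMC-like, 121.4 in MC-like and 118.7 in FB4-like cells. SMC-like cells, low for the other 6 genes of this role, were at 0.88 times the vFB1-2-like level for Psmb8 (interval of the level 120 to 174). Psmb9 ran from 154.8 in vFB3-like through 120.9 in cluster 6 and 101.2 in FB5-like to 29.1 in SMC-like cells. Tap1, a chain of the peptide transporter, was at 75.7 in vFB3-like against 34.8 in vFB1-2-like cells, and Tapbp, which bridges transporter and class I, at 309.6 against 200.7.

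Of the GTPases, which attack the vacuoles of intracellular pathogens, Gbp3 had the largest ratio in vFB3-like cells. It stood at 89.4 CPM there, at 36.7 in SMC-like, 26.6 in cluster 6, 22.9 in vFB1-2-like, 17.2 in FB5-like, 16.3 in FB4-like and 10.6 in MC-like cells. Gbp2 had its highest levels in vFB3-like (146.2) and SMC-like cells (104.9) and lay between 39.6 and 62.7 in the others, so SMC-like cells were at 2.65 times (2.09 to 3.31) the vFB1-2-like level. Iigp1 was highest in vFB3-like (307.9) and MC-like cells (176.0), followed by cluster 6 (124.2), vFB1-2-like (105.8), FB4-like (76.1), FB5-like (69.2) and SMC-like cells (36.7). In MC-like cells Iigp1 was at 216.6 in those with Xist (51 UMIs) and at 78.7 in those with Y-linked UMIs (15 UMIs). The latter was below the 97.5 of such vFB1-2-like cells. MC-like cells in neither set held the remaining Iigp1 UMIs of the class. The GTPases shared a high level in vFB3-like cells and otherwise did not rank the cell types alike.

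Of 13 antiviral effectors assessed in vFB3-like cells 9 were higher and 1 lower. Bst2, which tethers budding virions to the cell surface, was at 891.0 CPM in vFB3-like and 725.9 in cluster 6, then at 480.6 in FB5-like, 275.5 in SMC-like, 266.8 in vFB1-2-like, 172.4 in MC-like and 166.7 in FB4-like cells. Zbp1, a sensor of Z-form nucleic acid, was at 60.2 in vFB3-like and between 12.6 and 22.4 elsewhere, a ratio of 3.17 (2.19 to 4.47) to vFB1-2-like cells. Isg20, an exonuclease, went the other way, with 18.9 in vFB3-like against 51.5 in vFB1-2-like cells (0.37, 0.18 to 0.66). Ifi44 was under the minimum for a ratio but had 13 UMIs in 9 of 45 vFB3-like cells and 13 UMIs in 13 of 2695 vFB1-2-like cells, levels of 22.4 (11.9 to 38.2) and 0.45 (0.24 to 0.77).

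**Figure D2:**
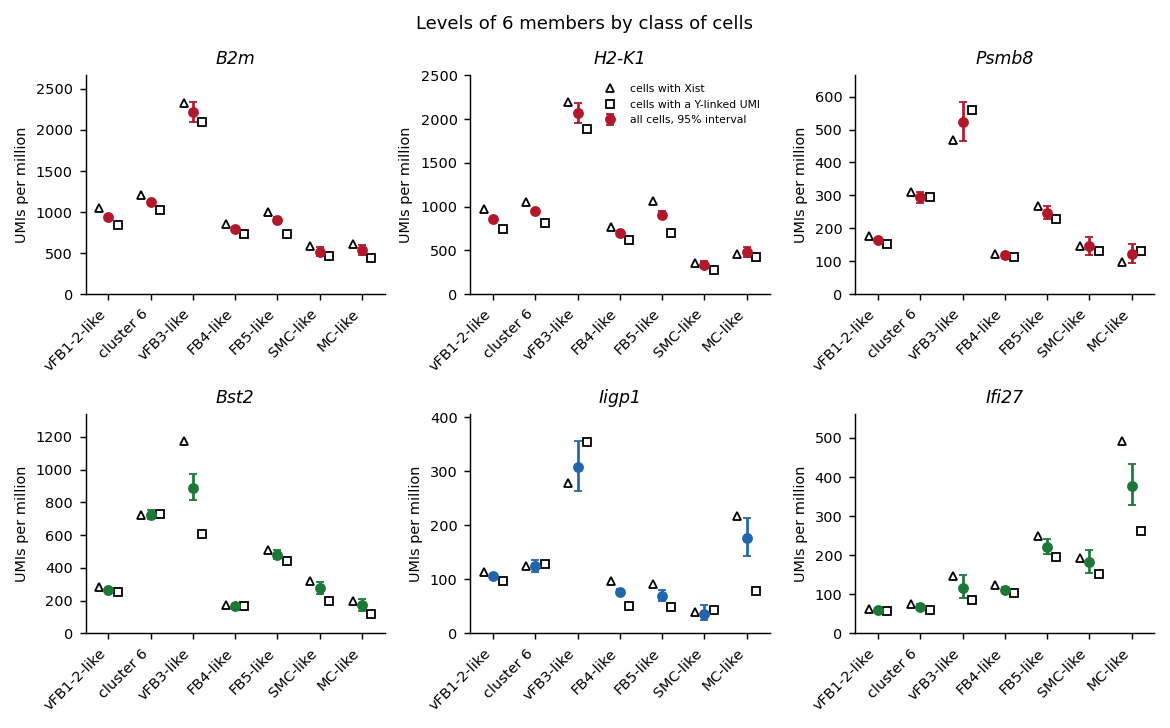
Level in CPM (UMIs per 1000000, vertical axis from 0) of B2m, H2-K1, Psmb8, Bst2, Iigp1 and Ifi27 in cluster 6 and 6 named classes, with exact Poisson 95% intervals and separate points for cells with Xist and cells with Y-linked UMIs. vFB3-like cells are highest for all but Ifi27, which is highest in MC-like cells at 378.3, but for Bst2 the vFB3-like cells with Y-linked UMIs lie below those of cluster 6.

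Cells with Xist and cells with Y-linked UMIs both carried the vFB3-like pattern. The 20 vFB3-like cells with Xist and the 22 with Y-linked UMIs had 2332 and 2092 CPM for B2m, 468.5 and 559.7 for Psmb8, and 278.3 and 355.1 for Iigp1. For the summed interferon-response members the ratio to vFB1-2-like cells of the same kind was 2.06 and 2.12. Gbp3 and Bst2 were less even, at 49.3 and 139.0 and at 1177 and 609.9, and among cells with Y-linked UMIs cluster 6 had more Bst2 (728.1). The cells themselves overlapped: after each cell was thinned to 5000 UMIs, so that depth was equal, the 44 vFB3-like cells that were deep enough had a median of 36 antigen presentation UMIs (15 to 62) and 2643 vFB1-2-like cells had 16 (1 to 71). For the interferon-response members the medians were 13.5 (3 to 32) and 6 (0 to 34). Among the 2% of cells with the highest interferon-response level were 10 of 45 vFB3-like cells, or 22.2% (Clopper-Pearson 95% interval 11.2 to 37.1), and 38 of 2695 vFB1-2-like cells, or 1.41% (1.0 to 1.93). Without these cells the interferon-response ratio was 1.74.

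Other genes of the pathway, taken from a list of 97 of which 88 were in the matrix, gave 20 higher and 3 lower of 45 assessed in vFB3-like cells (15.7% and 16.6% over all genes). The largest ratios were those of H2-Q7, a nonclassical class I gene (7.35, 6.28 to 8.56), of the GTPase gene Ifi47 (5.45, 4.62 to 6.40) and of the proteasome activator gene Psme2 (3.14, 2.67 to 3.68). The 20 included 8 of 13 class I genes. Ifitm3, Ifitm1 and Ifitm2, the most abundant genes of the list, had ratios of 1.33, 1.07 and 0.76, so a high level in vFB3-like cells did not extend to them. Of the interferon genes themselves Ifng was the 1 found in the matrix and had 0 UMIs, which allows up to 3 in the library.

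FB5-like cells, fibroblasts beneath the epithelium marked by Sox6 and Bmp7, had higher levels of Ifi27, Ifit1 and Ifit3. Of 35 members 9 were higher and 2 lower, against 13.0% and 17.4% of all genes assessed, with a median ratio of 1.11 (1.01 over all genes). Antigen presentation as a sum did not differ from vFB1-2-like cells by more than a few percent (1.0, 0.98 to 1.02), while the interferon-response sum was 1.34 times as high (1.30 to 1.38). Ifit1, which binds viral RNA lacking host cap methylation, was at 56.0 CPM in FB5-like cells, above 24.1 in vFB3-like, 20.2 in SMC-like, 18.2 in cluster 6, 16.8 in vFB1-2-like, 16.1 in FB4-like and 8.80 in MC-like cells. Its partner Ifit3 was at 49.6 against 21.2 in vFB1-2-like cells, and 41.3 in vFB3-like cells. In FB5-like cells with Xist and with Y-linked UMIs Ifit1 was at 63.0 and 48.7. SMC-like cells with Y-linked UMIs were at 70.2 on 13 UMIs, above that, and those with Xist at 6.19. Ifi27, Igtp, Irgm1, Bst2, Isg15, Usp18 and Psmb9 were the others above 1.5, and of the 9 Ifit3, Ifi27, Igtp, Irgm1, Bst2 and Psmb9 were also past it in vFB3-like cells. Iigp1 (0.65, 0.56 to 0.76) and Irf7, a factor that amplifies type I interferon (0.52, 0.34 to 0.76), were lower. For Iigp1 the cells with Xist fell short of the fold, at 91.7 against 113.6 CPM in such vFB1-2-like cells. Those with Y-linked UMIs were at 49.8 against 97.5. Of 69 pathway genes assessed 13 were higher and 11 lower, and the 11 included 4 of 5 class II genes and Cxcl10, a chemokine of T cells, at 0.095 (0.054 to 0.16). The markers of interstitial cells of Cajal (Kit, Ano1, Etv1) were highest in FB5-like cells, at 226.5 CPM against 26.8 in vFB1-2-like cells, of which Etv1 made up 223.3, and like the immune markers their part in these values was not tested.

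Contractile cells were low in class I. In SMC-like cells 3 of 33 members were higher and 10 lower (background 10.7% and 17.3%, median ratio 0.84 against 0.995), and in MC-like cells 4 of 32 were higher and 16 lower (12.7% and 20.6%, 0.69 against 0.98). The 7 antigen presentation genes summed to 0.49 (0.46 to 0.51) and 0.54 (0.51 to 0.58) of the vFB1-2-like level, and in each class 6 of the 7 were past the limit, Psmb8 being the other one. With classes set from marker UMIs without clustering the sums were 0.72 and 0.82. Of the pathway genes 19 of 51 assessed in SMC-like cells were lower and 2 higher, and 14 of 45 in MC-like cells were lower and 7 higher.

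Ifi27, a small mitochondrial and membrane protein, was highest in MC-like cells. It was at 378.3 CPM (329 to 432) in MC-like, 221.3 in FB5-like, 182.0 in SMC-like, 117.0 in vFB3-like, 111.8 in FB4-like, 66.7 in cluster 6 and 60.0 in vFB1-2-like cells. MC-like cells also had the highest Isg15, a ubiquitin-like modifier, at 168.9 against 49.2 in vFB1-2-like cells (3.44, 2.76 to 4.23). Both held in each kind of cell, with 492.6 and 262.4 for Ifi27 and 242.0 and 136.5 for Isg15 in MC-like cells with Xist and with Y-linked UMIs. Rtp4, an antiviral effector that binds RNA, was lower in MC-like (24.6) and SMC-like (30.3) than in vFB1-2-like cells (66.1), and Oasl2 was at 0.35 (0.14 to 0.72) in MC-like cells. The interferon-response sum of MC-like cells was 1.20 times the vFB1-2-like level (1.13 to 1.28), 0.98 without Ifi27, 0.97 without the 2% highest cells and 1.92 in the 8 cells with 8000 to 14000 UMIs, so it carries no direction. MC-like cells were shallow, with a median of 6793 UMIs and 21 of 69 cells under 5000, and the part of depth in these values was not tested. The 6 endothelial markers summed to 15.8 CPM on 9 UMIs in MC-like cells against 1.49 in vFB1-2-like cells, in data whose methods remove endothelial cells by Pecam1 and Cdh5. The 3 markers of interstitial cells of Cajal summed to 95.01 CPM there, of which Ano1 made up 68.6, and to 26.8 in vFB1-2-like cells, nearly all of it Etv1 (26.5), and the part of either list in these values was not tested. Ifngr2, a chain of the interferon gamma receptor, had the largest ratio of any pathway gene there (5.76, 4.55 to 7.20).

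FB4-like cells, submucosal fibroblasts marked by Ackr4 and Grem1, had a median member ratio to vFB1-2-like cells of 0.83, against 0.92 over all genes assessed. Of 36 members 2 were higher and 3 lower, against 6.57% and 12.6% of all genes, shares near the background. Ifi27 (1.86, 1.72 to 2.02) and Rsad2, also called viperin (2.01, 1.13 to 3.50), were higher, and Rtp4 (28.4 CPM, ratio 0.43), Psmb9 (0.57) and Bst2 (0.62) were lower. The interferon-response sum was at 0.84 (0.82 to 0.86) and the antigen presentation sum at 0.81 (0.80 to 0.82) of the vFB1-2-like level. Of 78 pathway genes 4 were higher and 14 lower.

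In cluster 6 Bst2 was higher and 3 transcription factors were lower than in vFB1-2-like cells. Of 35 members 4 were higher and 3 lower, against 5.61% and 17.1% of all genes, and the median ratio was 1.11 (0.94 over all genes). The share of lower members was thus under the background, and the lower ones are given as single genes. Bst2 was at 2.72 (2.61 to 2.84), Psmb9 at 1.87, Psmb8 at 1.78 and Gbp2 at 1.58 times the vFB1-2-like level. Irf1 (0.55, 0.49 to 0.62), Stat2 (0.59, 0.47 to 0.75) and Irf9 (0.64, 0.54 to 0.75) were lower, 3 of the 4 transcription factors in the list. Fos, an immediate early gene, was at 72.6 CPM in cluster 6 and at 1272 in vFB1-2-like cells. Of 74 pathway genes 13 were higher and 6 lower.

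Immediate early genes are switched on within minutes by growth factors and by stress, including the dissociation of tissue. The 7 genes Fos, Fosb, Jun, Junb, Egr1, Ier2 and Atf3 were summed in each vFB1-2-like cell after thinning to 5000 UMIs, which left out 52 shallower cells, and cells were divided into tertiles of 885, 887 and 871 cells (at most 4, 5 to 25, and above 25 UMIs). The lower cut had 474 cells within 2 UMIs of it and the upper 152, so the tertiles are ranges and not types. Between the highest and the lowest tertile 3 of 36 members were higher and 2 lower, against 9.83% and 4.64% of all genes. These shares are near the background, so no shift of the members as a group stands out, while a few single members had large ratios. The immune markers summed to 24.8 CPM in the highest and 23.9 in the lowest tertile.

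Irf1, a transcription factor that is itself induced quickly by interferon gamma, stood at 49.2 (44.8 to 53.9) CPM in the lowest tertile, 106.1 (99.7 to 112.8) in the middle and 220.4 (211.1 to 230.0) in the highest, a ratio of 4.48 (4.05 to 4.96). The ratio was 4.71 within cluster 1, 3.50 within cluster 2 and 3.11 within cluster 5. In cells with Xist it was 4.13 and in cells with Y-linked UMIs 4.88. Cluster 4 had 4 cells in the lowest tertile, too few for a ratio of use. Irf1 thus followed the immediate early genes in each set of cells that could be compared.

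Iigp1 ran the same way with a smaller slope, from 78.3 through 104.0 to 135.6 (1.73, 1.58 to 1.90), and was at 1.96 in Xist and 1.53 in Y-linked cells. Rtp4 ran against them, from 81.5 through 68.0 to 49.4 (0.61, 0.54 to 0.68), as did Usp18, a protease that removes Isg15 (10.7, 9.94 and 7.11 CPM; 0.66, 0.48 to 0.91). The Usp18 ratio was 0.76 (0.42 to 1.38) in Y-linked cells, an interval that includes no difference. Within clusters 1 and 2 the ratios were 0.70 (0.57 to 0.845) and 0.72 (0.54 to 0.93) for Rtp4, neither past the fold, 0.50 (0.27 to 0.90) and 0.86 (0.40 to 1.71) for Usp18, and 1.81 (1.57 to 2.08) and 1.44 (1.142 to 1.81) for Iigp1. Clusters 4 and 5 had only 4 cells in the lowest and 15 in the highest tertile. Rsad2 was at a ratio of 3.61 from only 22 and 6 UMIs (1.42 to 10.9). H2-K1 went from 949.6 through 870.8 to 762.6, and the antigen presentation sum of the highest tertile was 0.86 (0.85 to 0.88) of that of the lowest. Cells with Xist and with Y-linked UMIs were not evenly spread over the tertiles, as the highest held 339 Xist and 391 Y-linked cells and the lowest 471 and 295. Within Xist cells the sum was at 0.90 and within Y-linked cells at 0.89. The H2-K1 ratio was 0.75 (0.72 to 0.79) within cluster 1 and 0.87 (0.80 to 0.94) within cluster 2 but 1.31 (1.11 to 1.55) within cluster 5, where 15 cells were in the highest tertile.

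**Figure D3:**
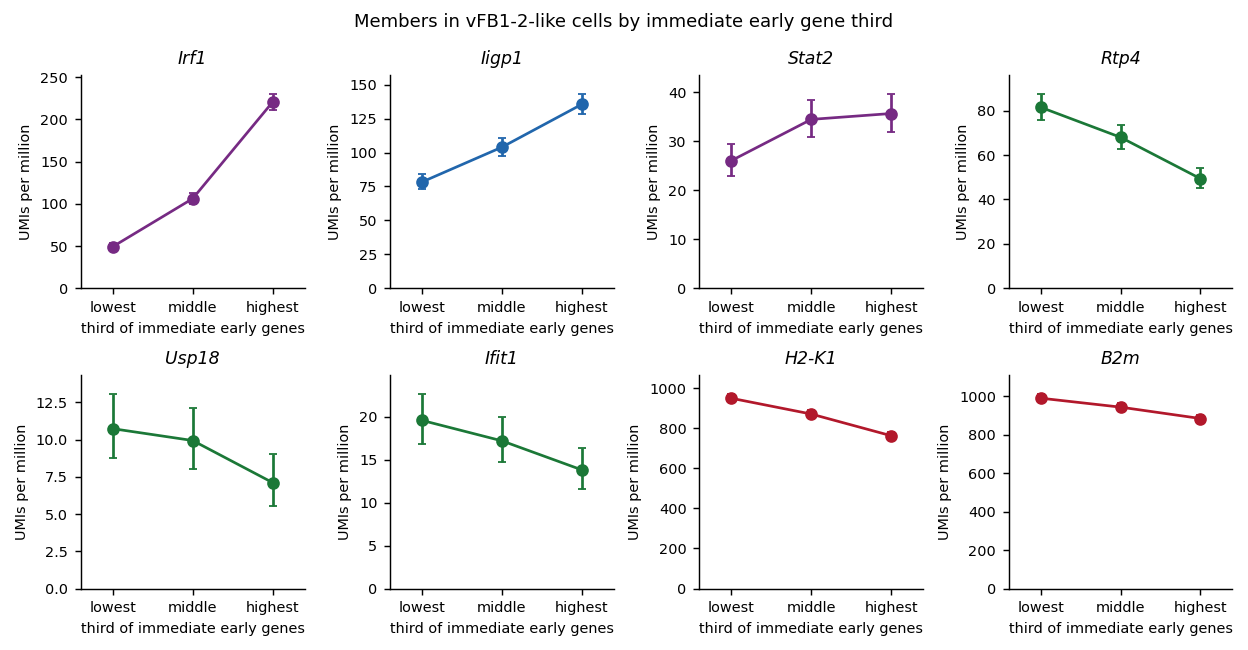
Level in CPM (vertical axes, from 0, with exact Poisson 95% intervals) of 8 members in vFB1-2-like cells by tertile of the summed immediate early gene UMIs. Irf1 goes from 49.2 to 220.4 across the tertiles, Iigp1 from 78.3 to 135.6 and Rtp4 from 81.5 to 49.4.

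The interferon-response sum was 1.08 times as high in the highest as in the lowest tertile (1.05 to 1.11) but 0.95 without Irf1, 0.96 (0.94 to 0.98) at clustering resolution 0.2 and 0.95 as the median of the members, so it carries no direction. Among 78 pathway genes 6 were higher and 8 lower (9.83% and 4.64% over all genes), so the share of higher genes was near the background. Cxcl10 was at 146.3 against 6.91 CPM (21.2, 16.5 to 27.6), and Socs3 and Socs1, inhibitors that JAK-STAT signals induce, were at 6.34 (5.75 to 7.0) and 3.37 (2.27 to 5.13). The lower 8 included Gbp4, Gbp6, Gbp8 and Gbp9 and the class II loading gene H2-DMb1 (0.41, 0.25 to 0.65). Across cell types Irf1 was at 193.5 in MC-like, 119.3 in FB4-like, 126.2 in vFB1-2-like, 89.7 in SMC-like, 89.6 in FB5-like and 69.3 CPM in cluster 6, with these sets listed by falling Fos level (2541, 1762, 1272, 918.7, 207.7 and 72.6 CPM). The vFB3-like cells had Irf1 at 194.4 with Fos at 190.9.

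Amotl2 was used to order the vFB1-2-like cells by a YAP and TAZ target. After thinning, 1593 cells had 0, 645 had 1 and 405 had at least 2 Amotl2 UMIs. Before thinning, 438 of the 1593 had at least 1 Amotl2 UMI, so 0 stands for a low level and not for absence. Between at least 2 and 0 UMIs 2 of 35 members were higher and 0 lower, against 4.94% and 5.47% of all genes, so again the share of members was near the background. The antigen presentation sum was at 0.99 (0.98 to 1.01), and of 76 pathway genes 0 were higher and 5 lower.

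The exceptions were Ifit2 and Bst2. Ifit2, a relative of Ifit1, was at 15.7 (13.8 to 17.7) CPM in cells with 0, 25.5 (21.95 to 29.4) with 1 and 32.6 (27.7 to 38.0) with at least 2 Amotl2 UMIs (2.08, 1.70 to 2.55), and Bst2 was at 228.5 (221.2 to 235.9), 291.7 (279.4 to 304.4) and 361.6 (345.0 to 378.8) (1.58, 1.495 to 1.68). Cluster membership moved with Amotl2, since 339 of the 405 high cells lay in cluster 1. Within cluster 1 the ratios were 1.18 (0.90 to 1.53) for Ifit2 and 1.15 (1.07 to 1.25) for Bst2. The 20 and 34 high cells of clusters 2 and 4 gave 3.03 (1.39 to 5.93) and 2.67 (1.37 to 4.87) for Ifit2, and 1.49 (1.20 to 1.84) and 1.71 (1.39 to 2.09) for Bst2. In cluster 5, with 12 high cells, the ratios were 1.28 (0.15 to 5.03) and 1.02 (0.66 to 1.52). In Xist and Y-linked cells Ifit2 was at 2.06 and 1.87 and Bst2 at 1.34 and 2.05. The interferon-response sum was at 1.09 (1.06 to 1.12), and at 0.99 without Bst2. The immune markers summed to 31.2 CPM in cells with at least 2 and 20.9 in cells with 0 Amotl2 UMIs, and their part in these values was not tested.

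**Figure D4:**
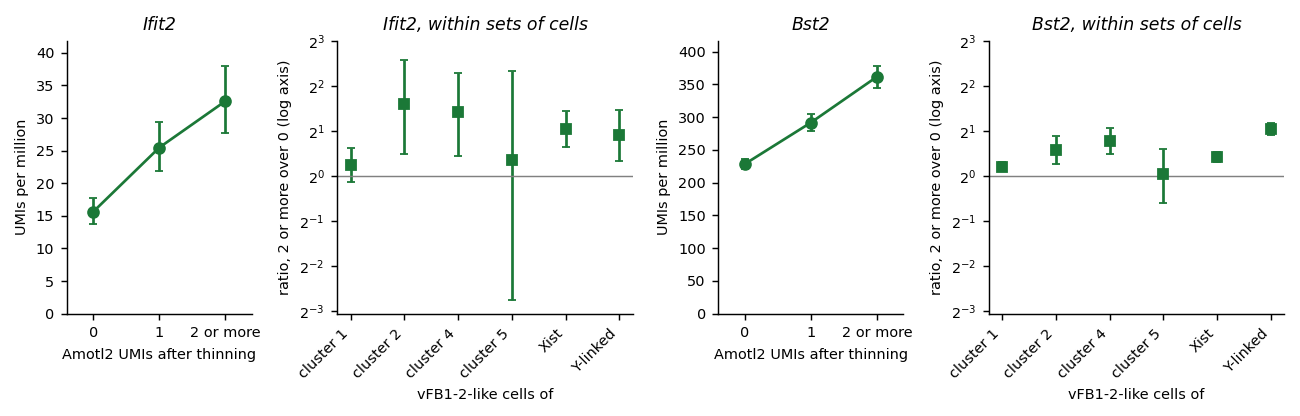
Level of Ifit2 and Bst2 in CPM (from 0) by Amotl2 UMIs per thinned vFB1-2-like cell, beside the ratio of cells with 2 or more to cells with 0 within clusters 1, 2, 4 and 5 and within Xist and Y-linked cells (log axis, 95% intervals). Ifit2 goes from 15.7 to 32.6, while its ratio within cluster 1 is 1.18.

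The vFB1-2-like cells with Xist had slightly more class I than those with Y-linked UMIs. No member passed the fold of 1.5 in either direction among 36 assessed, against 3.34% and 3.69% of all genes, but the antigen presentation sum was 1.25 times as high (1.23 to 1.26) and the interferon-response sum 1.07 times (1.05 to 1.097). Of 80 pathway genes 6 were higher and 0 lower. H2-Q6 (2.49, 1.82 to 3.46) and H2-Q7 (2.36, 2.06 to 2.71), neighbours within the MHC, had the largest ratios, and Oas2 followed at 2.04 (1.02 to 4.33) from 33 and 12 UMIs. With 1 library and animals known only by these genes, the difference has no replicate check.

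To see which members were found in the same cells, the vFB1-2-like cells thinned to 5000 UMIs were split by 1 member at a time and the other 36 were compared. The splits used the most abundant member of each role, Bst2, Ifih1, Irf1, Iigp1 and H2-D1, plus Ifit1 and Isg15, 2 effectors chosen after their values were seen. Cells with at least 1 UMI were set against cells with 0, or for H2-D1 the highest against the lowest tertile. Median depths on the 2 sides were 10200 and 10290.5 UMIs for Ifit1, 10621 and 10234 for Isg15 and 10591 and 9924 for Bst2, the widest gap among the splits of all cells. Members that rise and fall together in single cells give ratios above 1 in such a split even where each is sparse. Cells with a UMI numbered from 179 for Ifit1 to 1659 for Bst2, so the splits are unlike. Their counts of members therefore do not rank the genes.

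The split by Ifit1 gave the most members past the fold, on the fewest cells with a UMI. The 179 cells with a UMI, set against 2464 without, had 18 of 33 members higher and 0 lower, against 1.73% and 3.02% of all genes. Usp18 was at 36.98 against 7.17 CPM (5.16, 3.89 to 6.78), Ifit3 at 81.5 against 16.8 (4.86, 4.04 to 5.83) and Isg15 at 135.4 against 42.9 (3.16, 2.76 to 3.61). Oasl2 (2.68), Irf7 (2.36), Rtp4 (2.27) and Iigp1 (2.11) came next. The 18 took in 9 of 14 effectors, both RNA sensors assessed, 3 of 4 transcription factors and 4 of 6 GTPases, but 0 of 7 antigen presentation genes, whose ratios lay between 1.04 and 1.28. Irf1 (0.90, 0.78 to 1.03), Ifi27 (0.87, 0.70 to 1.06), Bst2 (1.17, 1.07 to 1.27) and Ifit2 (1.20, 0.88 to 1.61) were not part of the set. In Xist cells 17 of 33 and in Y-linked cells 15 of 31 were higher (3.15% and 2.37% over all genes), and the 15 included 1 antigen presentation gene, Tap1 (1.68, 1.143 to 2.395).

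Splits by Isg15 and Iigp1, with more cells on the side with a UMI, gave fewer members. The 434 cells with Isg15 had 12 of 34 members higher and 0 lower (background 1.08% and 2.18%), and the 698 cells with Iigp1 had 9 of 35 higher and 0 lower (1.47% and 1.38%). Rtp4, Xaf1, Zbp1 and Irf7, higher with both Ifit1 and Isg15, were between 1.34 and 1.47 in the Iigp1 split, which had Ifit3 at 2.36 (2.01 to 2.78) and Igtp at 2.02 (1.72 to 2.38). Split by Iigp1, Xist cells had 10 of 34 members higher, Rtp4 among them (2.06% over all genes). Y-linked cells had 8 of 34 higher, Zbp1 and Irf7 among them (1.84%). The split by Ifih1, a sensor of double-stranded RNA, gave Ifit1, Ifit3, Oasl2 and Usp18 of 34 higher and 0 lower (1.15% and 1.72%). The split by Bst2 gave Isg15, Rsad2 and Usp18 of 35 higher and 0 lower (1.97% and 1.95%).

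The split by Irf1 left most other members within the fold. In the 1040 cells with an Irf1 UMI 0 of 35 other members were higher and 1 was lower (3.44% and 1.76%), Usp18 at 0.61 (0.46 to 0.80), and Iigp1 was at 1.35 (1.25 to 1.45). In Y-linked cells Iigp1 was past the fold at 1.68 (1.48 to 1.90), 1 of 34 (4.10% over all genes), and in Xist cells 0 of 34 were higher (3.94%), with Usp18 lower in both. The split by H2-D1, 853 against 978 cells, gave 1 of 35 higher and 1 lower (1.84% and 4.02%). H2-K1 was at 1136 against 656.8 CPM (1.73, 1.68 to 1.78) and B2m at 1150 against 788.7 (1.46, 1.42 to 1.5), whereas Rsad2 was lower on 9 and 16 UMIs (0.64, 0.25 to 1.55). In Xist cells Ifit3, Zbp1, Dhx58 and H2-K1 were higher, 4 of 34 (2.32% over all genes), and in Y-linked cells H2-K1 alone, 1 of 34 (2.07%), with Rsad2 under the minimum in both.

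**Figure D5:**
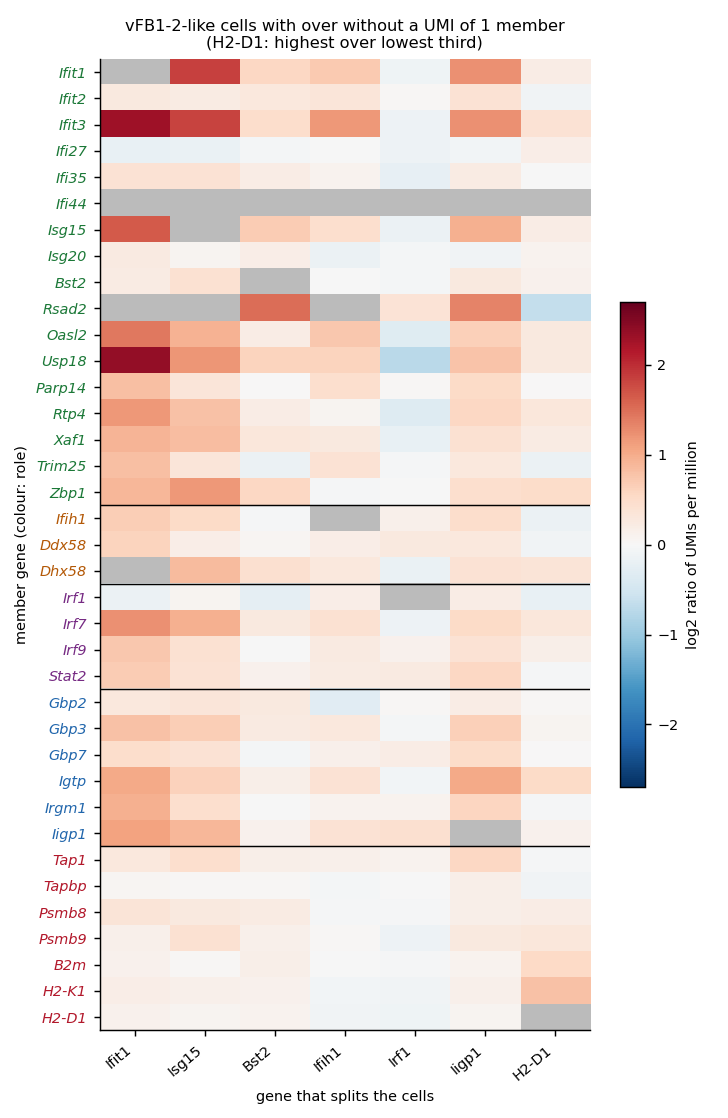
Log2 ratio of each member (rows, by role) between thinned vFB1-2-like cells with and without a UMI of Ifit1, Isg15, Bst2, Ifih1, Irf1 or Iigp1, and between the highest and lowest tertile of H2-D1 (columns), with genes under the minimum in grey. In the Ifit1 column 9 of 14 effectors and 4 of 6 GTPases are higher, and in the Irf1 column 0 of 16 and 0 of 6 are, with 1 effector, Usp18, lower.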

How the data were processed

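Single-cell RNA of PDGFRb+ intestinal stromal cells was measured in 1 LATS1/2 KO library with a droplet kit that reads 3-prime ends. Per the labels, the authors used Cell Ranger 3.0.2, Seurat 3.0.1 and the mm10 genome. Their methods keep cells with 1000 to 6000 genes and no more than 7% mitochondrial reads, limits that all 4108 cells met, and remove immune cells with Ptprc and endothelial cells with Pecam1 and Cdh5. The deposited values were natural log values, the log of 1 plus UMIs per 10000 of the cell. The design assumed raw counts. Exponentiated, 100.00% of 13789523 nonzero entries came out as whole multiples of what 1 UMI is worth in that cell (tolerance 0.001), and the UMI counts thus read back were used. Columns carried M and F marks that split the 1 library by Xist, and they were not treated as samples.

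Cells were clustered with Seurat 5.3.0 in R 4.3.3 (2000 variable genes less 65 held out, 30 principal components, resolution 0.5). Counted markers were those seen in 10% or more of a cluster, at 25% or more of the level in the highest cluster. No doublet caller was run, and leaving out cells above 5000 detected genes was an alternative. Levels, ratios (exact conditional binomial intervals), shares and figures were computed with Python 3.11.15, numpy 2.4.6, scipy 1.17.1, pandas 2.3.3 and matplotlib 3.10.9. The scripts were tested on simulated data. With 1 library there was no test between conditions, depth set the counting intervals, and reads of 1 molecule were already collapsed by UMI. All 37 members could be named, and of the other pathway genes the 3 most abundant and the 3 with the largest change in a comparison, except where the text says otherwise, and 1 gene of the pathway list is not reported here by name. The members, lists and comparisons were chosen with earlier results of these data known. Alternatives covered resolution, classes without clustering, cells with Xist or with Y-linked UMIs alone, depth, mitochondrial share, weighting, the minimum and the fold.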

Additional observations from a re-analysis of the deposited data

How the results depend on the processing

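No paired analysis was possible because 1 library was analysed. Leaving out 1 replicate was likewise not possible. Of 184 values under alternative settings, 107 lay within the counting interval of the main value or, for counts of members, within 1.5 times of it. The others follow, and the cause was not tested. Alternatives for vFB3-like, FB5-like, SMC-like and MC-like sums not listed beforehand, and those that leave out 1 gene, were chosen after seeing the data.

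For the interferon-response sum over vFB1-2-like cells, the FB4-like ratio was 0.80 at clustering resolution 0.2, 0.87 in Xist cells and 0.78 in Y-linked cells. The vFB3-like ratio was 1.40 with classes from marker UMIs, 1.74 without the 2% highest cells, 1.67 as the median of the members and 1.75 without Bst2. The FB5-like ratio was 1.28 at resolution 0.2, 1.17 with classes from marker UMIs, 1.72 at 5% mitochondrial UMIs or less, 1.30 without the 2% highest cells, 1.12 as a median and 1.24 without Ifi27. The MC-like ratio was 1.40 in Xist cells, 1.02 in Y-linked cells, 1.75 at 5% mitochondrial UMIs or less, 1.92 at 8000 to 14000 UMIs, 1.36 without cells above 5000 genes, 0.97 without the 2% highest cells, 1.40 with cells weighted equally, 0.90 as a median and 0.98 without Ifi27.

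For Amotl2 the interferon-response ratio was 1.12 at 5% mitochondrial UMIs or less, 1.01 at 8000 to 14000 UMIs, 1.05 with cells weighted equally, 0.95 as a median, 0.97 and 1.18 within the lowest and middle immediate early tertiles and 0.99 without Bst2. For the immediate early tertiles it was 0.96 at resolution 0.2, 1.05 with classes from marker UMIs, 1.12 at 5% mitochondrial UMIs or less, 0.95 as a median, 1.01 and 1.15 within cells with 0 and with at least 2 Amotl2 UMIs and 0.95 without Irf1.

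The antigen presentation ratio of FB4-like cells was 0.80 at resolution 0.2, 0.78 in Xist cells, 0.83 in Y-linked cells and 0.77 as a median. That of vFB3-like cells was 1.26 with classes from marker UMIs, 1.91 in Xist cells, 2.19 in Y-linked cells and 2.36 as a median. That of SMC-like cells was 0.44 at resolution 0.2, 0.72 with classes from marker UMIs and 0.63 at 5% mitochondrial UMIs or less. That of MC-like cells was 0.82 with classes from marker UMIs, 0.48 in Xist cells, 0.66 at 8000 to 14000 UMIs and 0.50 with cells weighted equally. For the immediate early tertiles it was 0.85 at resolution 0.2, 0.85 with classes from marker UMIs, 0.90 in Xist cells, 0.89 in Y-linked cells, 0.88 as a median and 0.85 and 0.81 within cells with 0 and with at least 2 Amotl2 UMIs.

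With a fold of 2 in place of 1.5, and with the percentage of all genes assessed at that setting in parentheses, the members higher and lower were 1 (1.47%) and 0 (7.65%) in cluster 6, 13 (4.79%) and 1 (10.3%) in vFB3-like, 1 (3.60%) and 1 (6.26%) in FB4-like, 3 (5.10%) and 0 (9.97%) in FB5-like and 2 (5.30%) and 7 (10.7%) in MC-like cells, 1 (1.74%) was higher with Amotl2 and 0 (1.515%) were lower with the immediate early genes. With a minimum of 30 expected UMIs, 12 (13.1%) were higher and 0 (16.2%) lower in vFB3-like cells, 1 (5.19%) was higher in FB4-like and 9 (21.6%) were lower in MC-like cells. With no minimum, 4 (41.3%) were lower in vFB3-like cells, 7 (19.99%) higher in MC-like cells and 1 (17.9%) lower with Amotl2. The 45 vFB3-like, 80 SMC-like and 69 MC-like cells limit every value of rare members there.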
